A study of Macaca mulatta with 6 samples.

Results

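The genes described here are 36 neural and neuronal genes, from transcription factors of the early neural plate to adhesion and cytoskeletal proteins of neurons. They were matched by gene symbol in the expression tables of 6 rhesus monkey induced pluripotent stem cell (iPSC) lines, where 33 of the 36 were found on 1 row each among 30246 rows. POU3F1, POU3F2 and SALL2 were not matched by symbol. Levels are FPKM, fragment numbers scaled to transcript length and to library size, so genes can be compared with each other. A row was tested if its FPKM reached 1 in 2 or more libraries and if no library had a failed estimate for it, which left 26 of the 33 genes and 13685 rows in all. Of the other 7 genes, SIX3, RAX, NEUROD1, NEUROG2, HES5 and CNTN1 did not reach that level, and the estimate of NES had failed in 1 library.

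The lines were made from rhesus fibroblasts, per the series title, and sequenced as 2 male naive, 2 female naive and 2 male primed lines. Naive lines grew in 15% serum replacement with N2 supplement, bFGF (4 ng/ml) and LIF (10 ng/ml). Their medium also held the GSK3 inhibitor CHIR99021 at 3 µM, the MEK inhibitor PD0325901 at 0.5 µM, and SB203580 against p38 and SP600125 against JNK at 10 µM each. Primed lines grew in 20% serum replacement with bFGF and without those additions, so the state and its medium cannot be told apart. Feeder cells were removed before RNA was isolated. The labels give no donor, passage or age for a line and no female primed line was analysed here. Each group is n = 2 libraries, and a p-value here reflects only how far such lines differ, which may be technical.

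Neural fate is the path that epiblast cells take when BMP and Nodal signals are low. Transcription factors such as PAX6, SIX3 and LHX2 mark the forming brain and eye field, NES and FABP7 mark dividing progenitors, and proneural factors such as NEUROG2 drive cells out of division. Neurons then build stable microtubules (MAP2, TUBB3, DCX) and axons, which adhere through immunoglobulin-family proteins and are steered by SLIT ligands and ROBO receptors. Several of these genes are also transcribed in undifferentiated pluripotent cells, and primed cells lie closer to the stage at which neural fate is chosen.

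Effective fragments, estimated from the deposited bounds of each FPKM, summed to 1478692 and 1754857 in the male naive libraries and to between 7607125 and 10013491 in the other 4. Low genes were therefore measured least precisely in male naive lines. POU5F1, the OCT4 pluripotency factor, was at 109 to 135 FPKM in primed and 536 to 1160 FPKM in naive libraries, and NANOG was at 0.933 and 2.09 FPKM in primed and 28.7 to 95.9 FPKM in naive libraries. In naive against primed lines limma called 1548 of 13685 rows at a Benjamini-Hochberg adjusted p under 0.05, 6.72% of the tested rows higher and 4.59% lower. With upper-quartile scaling the split was 693 higher and 878 lower, against 920 and 628 without scaling.

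Naive lines had lower levels of the adhesion genes MDGA1, NRCAM and NCAM1, the zinc finger factor ZNF521 and, averaged over male and female lines, the microtubule gene MAP2, and a higher level of the receptor phosphatase PTPRZ1. Of the 26 tested genes 1 was called higher and 5 lower, shares of 3.85% and 19.2% against the 6.72% and 4.59% of all tested rows. The median log2 difference was -0.40 for these genes and 0.03 for all tested rows, and 15 of the 26 differences were below 0. All 4 naive libraries lay below both primed libraries for 9 of the 26 genes (15.9% of all tested rows) and above both for 5 (18.9%). The remaining 12 overlapped. MDGA1 and ELAVL4 reached 1 FPKM in primed lines alone and LHX2 and LHX5 in naive lines alone. These 4 thus passed the filter through the state where they were high, and their separation supports nothing. The counts of this paragraph include them, and MDGA1 is among the 5 called lower. With the deposited bounds of every library taken into account, 4 genes lay lower in all naive libraries (3.3% of all tested rows) and 2 higher (4.68%). MDGA1 is among those 4 and LHX5 among those 2. Of the 26 genes 15 had an unadjusted p under 0.05, 7 of them higher and 8 lower, where 30.9% of all tested rows did. In bulk RNA, fewer cells that express a gene and less RNA per cell cannot be told apart.

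**Figure D1:**
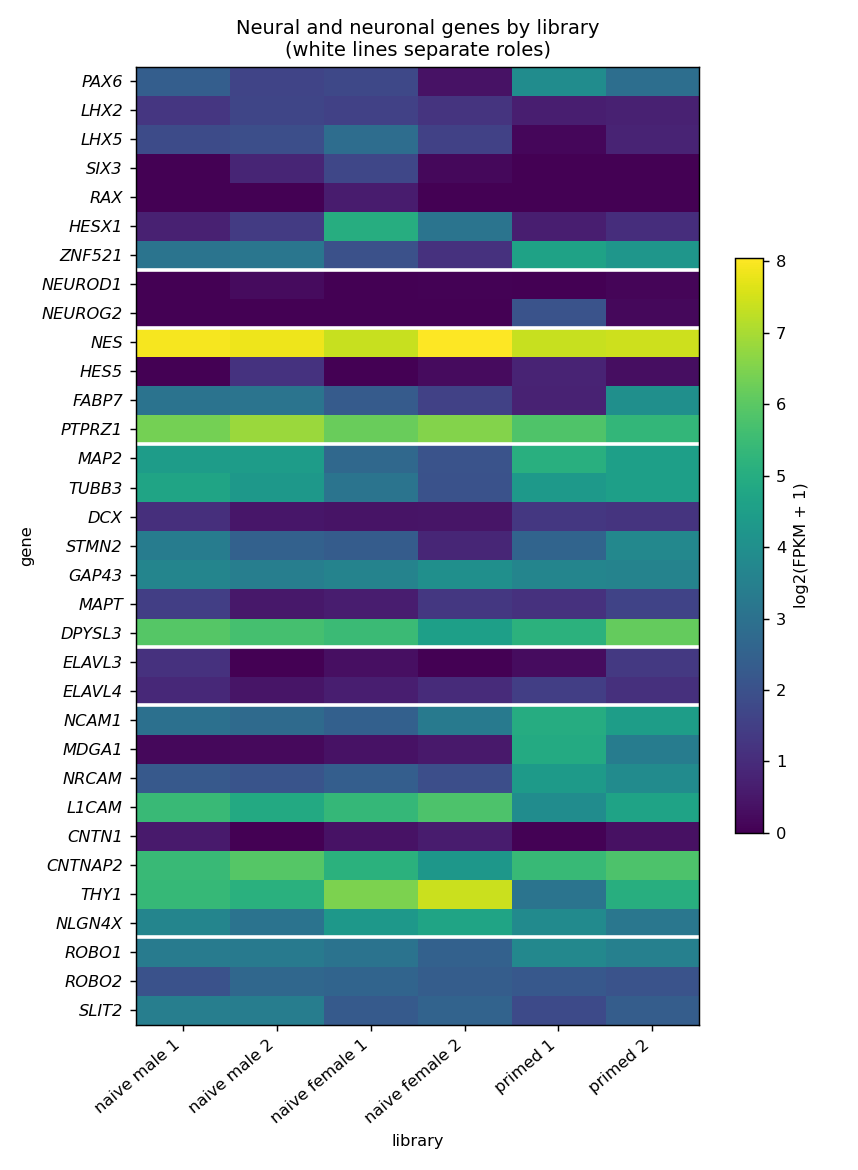
Levels of the 33 neural and neuronal genes as log2(FPKM + 1) in each of the 6 libraries, grouped by role (white lines). NES is bright in every column, MDGA1, NCAM1, NRCAM and ZNF521 are brighter in the 2 primed columns, and the proneural factors NEUROD1 and NEUROG2 are dark in all 4 naive columns.

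Among the adhesion molecules, 7 of 8 were tested, 3 were lower in naive lines (42.9%, against 4.59% of all tested rows) and 0 were higher (against 6.72%). MDGA1 (chromosome 4, 37418383 to 37476888 as the files give it) is a membrane-anchored immunoglobulin protein that binds neuroligins. It was at 0.129 and 0.153 FPKM in the male naive lines, 0.304 and 0.456 in the female naive lines and 29.1 and 9.37 in the primed lines. The groups were far apart, with every naive upper bound at or below 0.665 FPKM and the lower primed bounds at 27 and 7.98 FPKM. The log2(FPKM + 1) difference was -3.82 (SE 0.43, limma adjusted p = 0.0101). Male naive values rested on 0.5 effective fragments each and female naive values on 10.1 and 19.1, and MDGA1 passed the filter through the primed libraries alone. Against female naive lines the primed mean was 50.6 times higher.

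NRCAM (chromosome 3, 145573921 to 145878834), an adhesion protein of the L1 family, was at 3.78 and 3.29 FPKM in the male naive lines, 4.25 and 2.78 in the female naive lines and 19.7 and 13.6 in the primed lines. The 4 naive libraries were close together and all lay below both primed ones. NRCAM fell by 1.95 on the log2(FPKM + 1) scale (SE 0.24, limma adjusted p = 0.0104), and its primed mean was 4.72 times the naive mean. NCAM1 (chromosome 14, 111677925 to 111745516), the neural cell adhesion molecule, was at 6.87 and 5.92 FPKM in the male naive lines, 4.58 and 9.02 in the female naive lines and 30.5 and 21.4 in the primed lines. Again no naive library reached a primed one. NCAM1 fell by 1.84 (SE 0.28, limma adjusted p = 0.0177), a ratio of 3.93 between primed and naive means. Without primed 1 the adjusted p was 0.0600 for NRCAM and 0.0917 for NCAM1, and NCAM1 also passed the threshold neither without naive male 1 (0.0596), nor without naive male 2 (0.0648), nor without both (0.0541).

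The other adhesion genes did not share this order. L1CAM, the founding member of the L1 family, was at 42.4 and 28.4 FPKM in the male naive lines, 40.2 and 54.4 in the female naive lines and 14.0 and 24.5 in the primed lines, so that all naive libraries lay above both primed ones. Its log2 difference of 1.08 (SE 0.28) did not pass the threshold (limma adjusted p = 0.0586). THY1, a small surface glycoprotein of neurons that fibroblasts also carry, was at 40.9 and 33.4 FPKM in the male naive lines, 86.7 and 167 in the female naive lines and 7.49 and 32.0 in the primed lines. The naive libraries again lay above the primed ones, by little between naive male 2 and primed 2, and the difference of 2.02 (SE 0.55, limma adjusted p = 0.0652) was called only when primed 2 was left out (3.00, adjusted p = 0.0237). COL1A1, the main fibroblast collagen chain, was at 42.0 to 153 FPKM in naive libraries, 9.23 in primed 1 and 135 in primed 2, and the part of fibroblast RNA in the THY1 values was not tested.

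CNTNAP2, a neurexin-like protein of axons, was at 43.1 and 59.9 FPKM in the male naive lines, 34.3 and 18.2 in the female naive lines and 41.4 and 54.8 in the primed lines. Its groups overlapped. NLGN4X, a synaptic neuroligin, was at 11.7 and 7.42, 18.4 and 24.9, and 13.6 and 8.04 FPKM in the same order, and neither was called (limma adjusted p = 0.378 and 0.373). CNTN1, a contactin, stayed at or below 0.533 FPKM in every library.

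**Figure D2:**
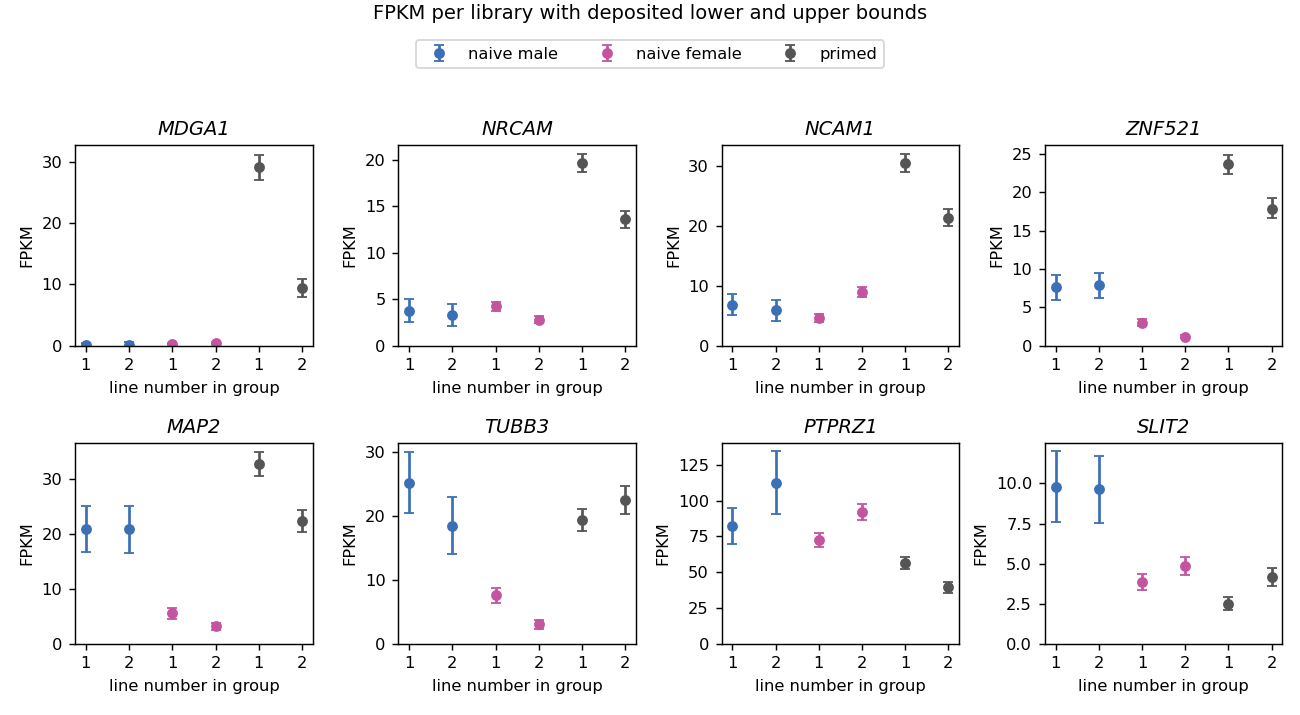
FPKM of the 8 genes called in any comparison, per line, with the deposited lower and upper bounds as bars and each vertical axis starting at 0. MDGA1, NRCAM, NCAM1 and ZNF521 are highest in both primed lines, MAP2 and TUBB3 are lowest in both female naive lines, and SLIT2 is highest in both male naive lines.

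Of 10 early neural and forebrain transcription factors 5 were tested. ZNF521 (chromosome 18, 18075008 to 18366916), which promotes the step from epiblast to neural progenitor, was at 7.61 and 7.87 FPKM in the male naive lines, 2.99 and 1.20 in the female naive lines and 23.7 and 17.9 in the primed lines. The 3 groups did not overlap, and female naive lines were lowest. ZNF521 fell by 2.08 in naive lines (SE 0.28, limma adjusted p = 0.0134). ZNF521 did not pass the threshold without naive male 1 (adjusted p = 0.0528), naive male 2 (0.0517) or primed 1 (0.0759), and when the male and female naive lines were treated as 1 group (0.107). PAX6, a master regulator of eye and forebrain, was at 4.25 and 2.10 FPKM in the male naive lines, 2.37 and 0.313 in the female naive lines and 14.2 and 6.53 in the primed lines. The naive libraries all lay below the primed ones, but the lines of each group differed by a ratio of 2.02 to 7.58, and the difference of -1.88 (SE 0.49) was not called (limma adjusted p = 0.0602).

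Among the other factors of the same role, LHX5 and LHX2 had higher values in all naive lines, and HESX1 in the female naive lines alone. None of them was called. LHX5, a LIM homeobox factor of the forebrain, was at 2.55 and 2.81 FPKM in the male naive lines, 6.34 and 1.97 in the female naive lines and 0.0969 and 0.743 in the primed lines. All 4 naive libraries were above both primed ones, and their deposited bounds did not overlap either (log2 difference 1.58, SE 0.41, limma adjusted p = 0.0601), but LHX5, like LHX2, was tested only because of its naive values. LHX2, its relative in the eye field and cortex, was at 1.304 to 2.23 FPKM in naive and 0.611 and 0.675 in primed lines (0.71, SE 0.25, limma adjusted p = 0.118). HESX1, a repressor of the anterior neural plate that epiblast cells also express, was at 31.6 and 7.51 FPKM in female naive lines but at 0.606 to 1.64 FPKM in the other 4 libraries. Its male naive values rested on 1 and 2 effective fragments. Female naive lines were thus the highest for HESX1 while they were the lowest for ZNF521. SIX3 reached 2.30 FPKM in naive female 1 and was listed at 0 in both primed lines, and RAX, an eye field factor, had a value above 0 in naive female 1 alone (0.538 FPKM).

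The row that carries no symbol in the files, but that a table of gene names assigns to POU3F2, lies outside the rule and is not counted. This neural POU factor was at 1.88 and 2.23 FPKM in the male naive lines, 0.470 and 0.0554 in the female naive lines and 3.88 and 3.19 in the primed lines, the same order of groups as for ZNF521. Its log2 difference between naive and primed lines was -1.21 (SE 0.25, limma adjusted p = 0.0338), with the female values resting on 7 and 1 effective fragments.

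The proneural factors were low, and only NEUROG2 in primed 1 was above 1 FPKM. NEUROG2 was listed at 0 in all 4 naive libraries and was at 3.17 FPKM in primed 1 and 0.122 in primed 2, on 33 and 1 effective fragments. NEUROD1 did not exceed 0.179 FPKM in any library. Levels such as those of NEUROD1, or of NEUROG2 in primed 2, could go undetected in the shallow male naive libraries.

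Progenitor genes covered the whole range of levels. NES, the intermediate filament nestin, was the highest of the 33 genes in each library, at 244 and 229 FPKM in the male naive lines, 166 and 263 in the female naive lines and 165 and 170 in the primed lines. Naive female 1 was as low as the primed lines. The value of naive female 2 carries a failed status. With failed estimates kept, the difference was 0.40 (SE 0.19, limma adjusted p = 0.204), and without that library 0.24 (SE 0.10, adjusted p = 0.222). PTPRZ1 (chromosome 3, 159454536 to 159588492), a receptor tyrosine phosphatase of radial glia, was at 82.2 and 112.5 FPKM in the male naive lines, 72.7 and 92.1 in the female naive lines and 56.5 and 39.4 in the primed lines. The naive libraries were all above the primed ones, and so were their bounds. PTPRZ1 rose by 0.90 in naive lines (SE 0.21, limma adjusted p = 0.0463), a ratio of 1.88 between naive and primed means. That call was made under 3 of 18 alternatives (adjusted p from 0.0396 to 0.147), and leaving out any library ended it.

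FABP7, a fatty acid-binding protein of radial glia, was at 7.37 and 7.59 FPKM in the male naive lines, 4.00 and 1.91 in the female naive lines and 0.695 and 15.1 in the primed lines. The naive values lay between those of the 2 primed lines, which differed by a ratio of 21.7, and the difference was 0.12 (SE 0.84, limma adjusted p = 0.937). HES5, a Notch target of progenitors, was at or below 1.28 FPKM and listed at 0 in naive male 1 and naive female 1.

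**Figure D3:**
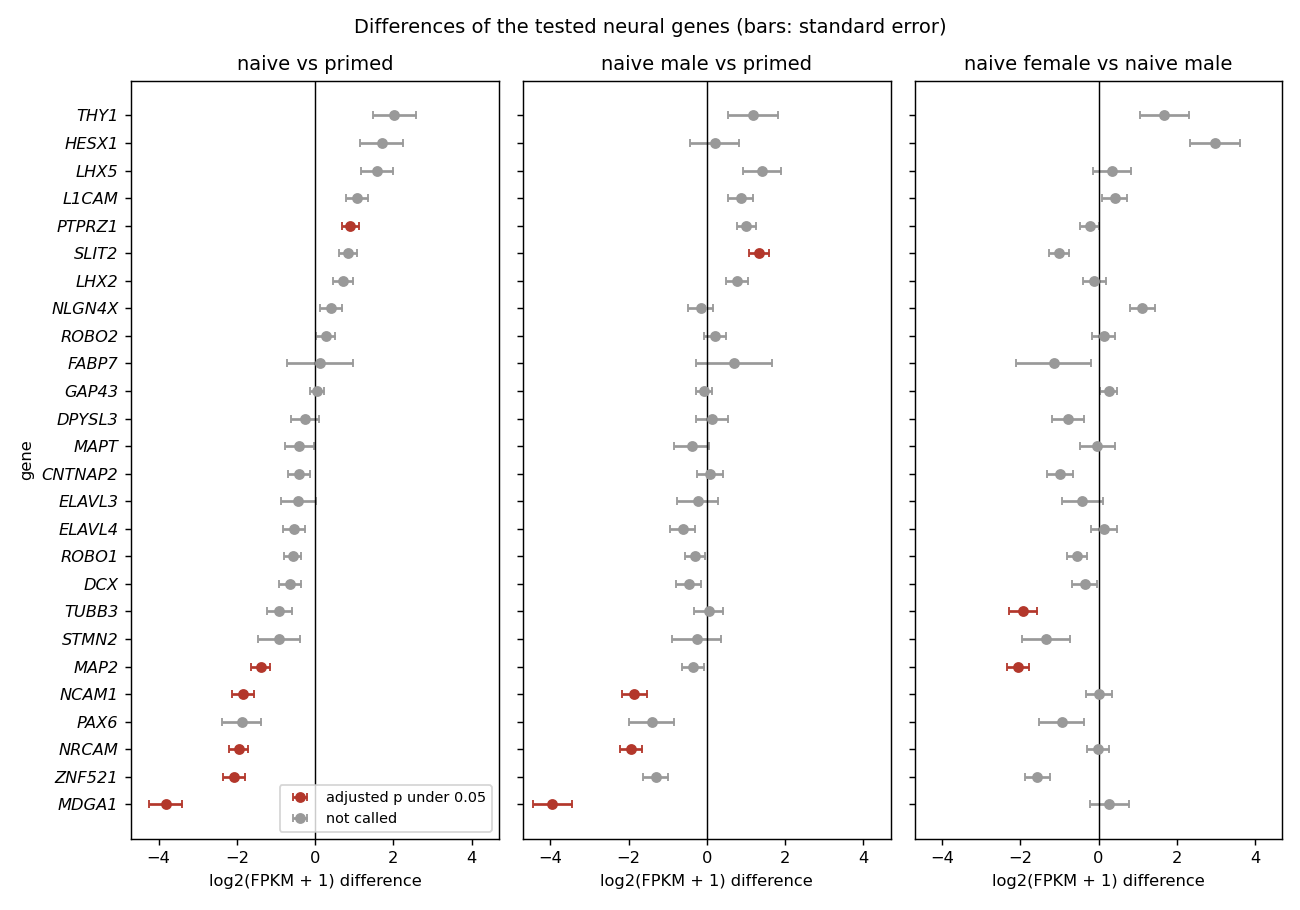
Log2(FPKM + 1) differences of the 26 tested genes in the 3 comparisons, with the standard error as bars and called genes in red. MDGA1, NRCAM and NCAM1 are red and to the left in both comparisons with primed lines, and MAP2 and TUBB3 are red in the comparison of female with male naive lines.

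All 7 genes of the neuronal cytoskeleton and growth cone were tested, and 1 was called (14.3%, near the 11.3% of all tested rows). MAP2 (chromosome 12, 73207882 to 73523772), which stabilises dendritic microtubules, was at 20.9 and 20.9 FPKM in the male naive lines, 5.60 and 3.19 in the female naive lines and 32.7 and 22.4 in the primed lines. The male naive lines were just under primed 2, and the female naive lines were well below all others. Averaged over the male and female naive groups MAP2 fell by 1.39 (SE 0.24, limma adjusted p = 0.0244), while the male lines alone were at -0.36 (SE 0.28, 0.468). MAP2 did not pass without naive male 1 (adjusted p = 0.0744), naive male 2 (0.0787), naive female 2 (0.0614) or primed 1 (0.106), nor with sex ignored (0.300). With the male naive lines left out the difference was -2.42.

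TUBB3, the neuronal beta-tubulin detected by the antibody TUJ1, was at 25.2 and 18.5 FPKM in the male naive lines, 7.56 and 3.08 in the female naive lines and 19.3 and 22.4 in the primed lines. Male naive and primed values overlapped. GAP43, a growth cone protein, varied little, from 9.81 to 15.2 FPKM over the 6 libraries (difference 0.06, SE 0.18, limma adjusted p = 0.856). DPYSL3, a growth cone protein of the CRMP family, was at 59.8 and 50.1 FPKM in the male naive lines, 44.1 and 22.2 in the female naive lines and 35.3 and 70.4 in the primed lines, with the lowest value in naive female 2. STMN2, a microtubule-destabilising stathmin of neurons, was at 9.29 and 4.61, 4.03 and 0.803, and 5.09 and 12.6 FPKM in the same order. Both were not called (limma adjusted p = 0.660 and 0.295). DCX, the doublecortin of migrating neurons, stayed between 0.330 and 1.47 FPKM and MAPT, the tau protein, between 0.427 and 2.08 FPKM.

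The neuronal RNA-binding proteins ELAVL3 and ELAVL4, which stabilise neuronal transcripts, stayed at or below 1.50 and 1.84 FPKM. Neither was called, and male naive values rested on 2 effective fragments or fewer.

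Of the guidance genes, ROBO1, a receptor for SLIT ligands, was at 9.20 and 8.93 FPKM in the male naive lines, 7.41 and 4.59 in the female naive lines and 12.4 and 10.4 in the primed lines. All naive libraries were below the primed ones, by little, and the difference of -0.57 was not called (SE 0.22, limma adjusted p = 0.135). ROBO2, which lies 923 kb from ROBO1 on chromosome 2, was at 3.03 to 5.43 FPKM in naive and 3.62 and 3.19 in primed lines, and these overlapped. SLIT2, the secreted ligand, was at 9.79 and 9.63 FPKM in the male naive lines, 3.84 and 4.84 in the female naive lines and 2.49 and 4.16 in the primed lines. Only the male naive lines stood apart for SLIT2.

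Setting male naive against male primed lines keeps sex constant, but state, medium, line and depth cannot be told apart in it. Of the 26 genes 1 was called higher and 3 lower, shares of 3.85% and 11.5%, where limma called 3.97% of all tested rows higher and 1.42% lower (5.39% in either direction). An unadjusted p under 0.05 was reached by 10 of the 26 genes and by 25.7% of all rows. Scaling shifted the median of all rows here from 0.09 to between -0.06 and -0.01, and the split of all calls from 543 higher and 195 lower to 391 and 357 with upper-quartile scaling, 399 and 294 with quantile normalization and 417 and 264 with median-of-ratios scaling. MDGA1 fell by 3.95 (SE 0.50, limma adjusted p = 0.0131), NRCAM by 1.94 (SE 0.28, 0.0191) and NCAM1 by 1.85 (SE 0.33, 0.0334). NRCAM and NCAM1 kept a negative difference under those scalings. So did MDGA1, but it had passed the filter through the primed libraries alone, so this is no support for its call. Its male naive values rested on 0.5 effective fragments each, and the count of 3 lower includes it. Without naive male 1 the adjusted p was 0.0851 for MDGA1, 0.102 for NRCAM and 0.135 for NCAM1. Without naive male 2 it was 0.0914, 0.122 and 0.166. NRCAM and NCAM1 were also lost without primed 1 (0.0735 and 0.116) and NCAM1 without primed 2 (0.0604).

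SLIT2 rose by 1.34 in male naive lines (SE 0.26, limma adjusted p = 0.0438). Its male naive mean was 2.92 times the primed mean, and the call held under 6 of 17 alternatives (adjusted p from 0.0434 to 0.183). Without naive male 1 or naive male 2 it was 0.177 and 0.183, without primed 1 it was 0.106, and without either female naive library 0.0901 and 0.0914. Neither MAP2 nor TUBB3 (0.05, limma adjusted p = 0.949) was called between male naive and primed lines, nor was ZNF521 (0.0714).

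Female naive lines, in the same medium as male naive lines, had lower levels of MAP2 and TUBB3. Of the 26 genes 0 were called higher and 2 lower, shares of 0% and 7.69%, against 0.76% and 2.55% of all tested rows (3.31% together). An unadjusted p under 0.05 was reached by 8 genes, 3 higher and 5 lower, and by 21.7% of all rows. The split over all rows was 104 higher and 349 lower, 106 and 219 with upper-quartile scaling, 118 and 223 with quantile normalization, and 122 and 220 with median-of-ratios scaling. The median of all rows was -0.10 unscaled and 0.01 to 0.03 with the scalings. MAP2 fell by 2.06 (SE 0.28, limma adjusted p = 0.0207), a ratio of 4.75 between male and female naive means, and was at -2.38 (0.0558) without naive female 1, -1.73 (0.117) without naive female 2, and at adjusted p = 0.123 and 0.141 without naive male 1 and 2. TUBB3 fell by 1.93 (SE 0.37, limma adjusted p = 0.0498), a ratio of 4.10. TUBB3 lies at the threshold, and 2 of 17 alternatives called it (adjusted p from 0.0440 to 0.216); it was lost without any 1 of the 6 libraries. Sex, line and depth cannot be told apart in this comparison.

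The other 24 genes were not called in this comparison. Nearest to the threshold were ZNF521 (-1.56, SE 0.32, limma adjusted p = 0.0622), HESX1 (2.98, SE 0.63, 0.0638) and SLIT2 (-1.01, SE 0.26, 0.100). None of the 3 X-linked genes was called in this comparison: NLGN4X had a difference of 1.12 (SE 0.32, limma adjusted p = 0.122), L1CAM 0.42 (0.508) and DCX -0.35 (0.574).

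The 2 lines of a group often differed by more than the deposited bounds of their FPKM. For 18 of the 26 genes the bounds of primed 1 and primed 2 were apart (69.2%, against 39.2% of all tested rows), and for 17 those of naive female 1 and naive female 2 (65.4%, against 30.6%). In the shallow male naive pair this held for 2 genes, DPYSL3 and CNTNAP2 (7.69%, against 1.27%). Primed 1 was higher for 9 genes and primed 2 for 9. MDGA1 was 3.10 times and PAX6 2.17 times higher in primed 1, while FABP7 was 21.7 times, THY1 4.27 times and STMN2 2.48 times higher in primed 2. Primed 2 also had higher values for 16 of 17 fibroblast and feeder markers, which summed to 648 FPKM in primed 1 and 1320 in primed 2, and between 1170 and 1950 in naive libraries. LUM, a stromal proteoglycan, was at 0.111 FPKM in primed 1 and 19.9 in primed 2. The part of such cells in the differences between primed lines was not tested.

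Within the female pair, naive female 1 was higher for 11 of the 17 genes and naive female 2 for 6. PAX6 was 7.58 times, STMN2 5.02 times, HESX1 4.21 times and ZNF521 2.49 times higher in naive female 1. NCAM1, THY1 and L1CAM were higher in naive female 2, by ratios of 1.97, 1.93 and 1.35. The levels of neuronal genes therefore had no common order between the female lines. Markers of other lineages also differed within this pair. The 8 endoderm markers summarised here, SOX17 and CER1 among them, summed to 220 FPKM in naive female 1, 38.3 in naive female 2 and 37.5 to 54.3 in the other libraries, and 7 of the 8 were higher in naive female 1. The 11 mesoderm markers summed to 48.0 FPKM in naive female 1 and 16.3 in naive female 2, with 10 of 11 higher in naive female 1. Most of these were near the floor: 7 of the 11 were under 1 FPKM in each female naive library, and 5 in all 6 libraries. The part of endoderm or mesoderm cells in the differences between the female lines was not tested.

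**Figure D4:**
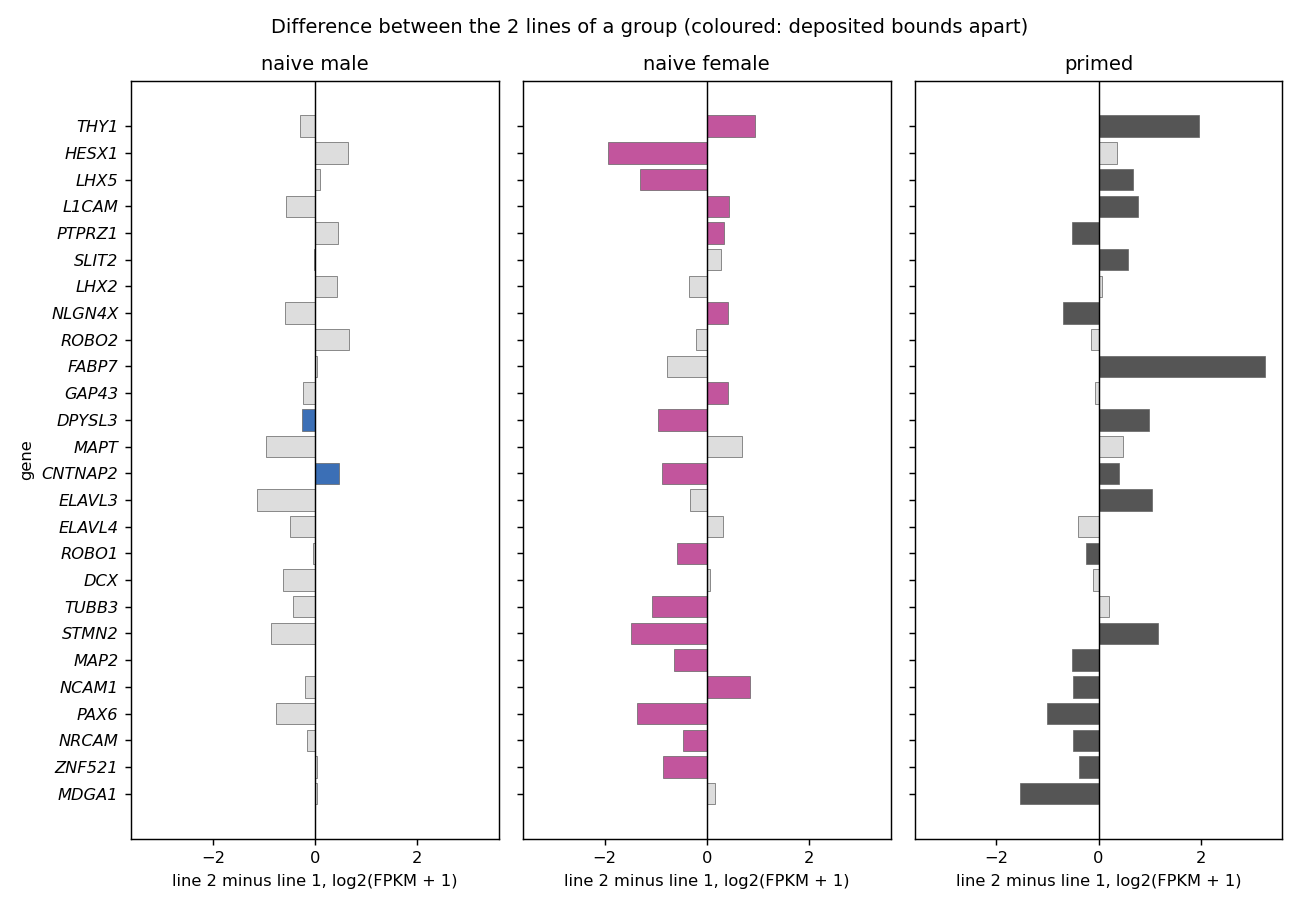
Difference between line 2 and line 1 of each group in log2(FPKM + 1) for the 26 tested genes, coloured where the deposited bounds of both lines do not overlap. FABP7 and THY1 are higher in primed 2 than in primed 1, PAX6, STMN2 and HESX1 are higher in naive female 1 than in naive female 2, and the male naive panel has 2 coloured bars.

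Related gene lists were counted in the same way, with no gene shared with the 36, and are to be read against the 4.59% lower and 6.72% higher of all tested rows. Of 16 other neuronal cytoskeleton genes, 6 were lower (37.5%) and 1 higher (6.25%) in naive than in primed lines, with a median of -0.70. TUBB2B, a beta-tubulin of developing neurons, was at 98.4 and 80.0 FPKM in the male naive lines, 10.7 and 11.5 in the female naive lines and 222 and 152 in the primed lines, and fell by 2.49 (SE 0.18, limma adjusted p = 0.00439). TAGLN3 fell by 1.88 (SE 0.21), DPYSL5 by 2.34 (SE 0.28) and MAP1B by 1.43 (SE 0.22). Between female and male naive lines 6 of the 16 were lower and 0 higher, 37.5% lower against 2.55% of all tested rows. TUBB2B fell there by 2.89 (SE 0.21, limma adjusted p = 0.00321), TAGLN3 by 2.00 (SE 0.24), MAP1B by 1.94 (SE 0.26) and the neurofilament gene NEFL by 1.69 (SE 0.23). In male naive against primed lines only TUBB2B of this list was called, at -1.04 (SE 0.21, limma adjusted p = 0.0473). The order of means that MAP2 showed, lowest in female naive and highest in primed lines, held for 8 of the 16 genes, among them those 4 and DPYSL5. The other 8 had another order, such as KIF1A, a kinesin motor, whose mean was highest in the male naive lines (39.7 FPKM, against 27.6 for primed and 17.6 for female naive lines). The share of all tested rows with the order of MAP2 was not counted, so 8 of 16 is no result about the list.

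Of 15 other neural adhesion genes 5 were lower (33.3%) and 2 higher (13.3%) in naive lines. CNTNAP1 and NLGN1, which are among the 5, reached 1 FPKM in primed lines alone and so were tested through the state where they were high. CNTNAP1 was at 0.376 to 0.568 FPKM in naive and 3.31 and 3.71 in primed lines and fell by 1.63 (SE 0.22, limma adjusted p = 0.0137), and NRXN2, a neurexin, fell by 1.36 (SE 0.23). ALCAM, an activated-leukocyte adhesion molecule that neurons share, rose by 2.74 (SE 0.33, limma adjusted p = 0.0102), and NTM by 1.42 (SE 0.21). Axon guidance genes had 4 of 17 higher (23.5%) and 0 lower: SEMA6A (1.98, SE 0.27), SEMA3A (1.79, SE 0.27), UNC5B (2.10, SE 0.31) and SEMA3F (1.49, SE 0.30). SEMA6A, a membrane semaphorin, was at 42.2 to 79.7 FPKM in naive and 11.4 and 15.5 in primed lines.

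Among 19 other neuroectoderm transcription factors 3 were lower in naive lines (15.8%) and 0 higher. These were MEIS2 (-3.44, SE 0.36, limma adjusted p = 0.00966), IRX3 (-2.04, SE 0.26) and ZIC2 (-0.65, SE 0.13), all homeobox or zinc finger factors of the neural plate. The Notch list had 1 of 16 lower (6.25%, near the share of all rows), the ligand DLL1 (-2.26, SE 0.39), and 7 proneural and differentiation factors had 1 lower (14.3%), TCF4 (-0.74, SE 0.14), a partner of proneural proteins. Of 12 neural RNA-binding proteins 2 were lower (16.7%), the splicing regulators NOVA1 (-1.44, SE 0.20) and NOVA2 (-1.54, SE 0.25), and 1 higher, RBFOX3 (1.17, SE 0.24). Of 12 genes of the REST complex, which silences neuronal genes outside neurons, 1 was lower (8.33%), RCOR2 (-0.67, SE 0.13), and 13 synaptic release genes had 1 lower, VAMP2 (-1.04, SE 0.20), and 1 higher, CPLX2 (1.02, SE 0.24). CPLX2 was listed at 0 in both male naive lines and was at 6.23 and 8.48 FPKM in female naive lines, so its naive mean rests on the female lines. Single calls in lists of this size are no result about the list.

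Markers of other cell types were counted alongside, to be read against the same 4.59% lower and 6.72% higher of all tested rows. The neural crest list had 1 of 10 higher, FOXD3 (1.98, SE 0.29), which pluripotent cells also express, and 1 lower, SOX5 (-1.34, SE 0.26). Glial markers had 1 of 7 lower, GLUL (-0.50, SE 0.10). Fibroblast and feeder markers had 0 of 15 called (3 at an unadjusted p under 0.05). Mesoderm markers had 2 of 6 higher (33.3%), EOMES (3.10, SE 0.54) and KDR (2.22, SE 0.24). Pluripotency genes had 5 of 9 higher (55.6%) and 0 lower. RBFOX3, CPLX2, FOXD3, EOMES, KDR and the pluripotency gene TDGF1 reached 1 FPKM in naive lines alone. They were thus tested through the state where they were high, and their calls support nothing. The counts include them, and EOMES and KDR are the only mesoderm calls. Of the 18 proneural and differentiation factors found, 11 were under 1 FPKM in all 6 libraries, as were 7 of 14 glial markers. All values in these lists are from limma at an adjusted p under 0.05.

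**Figure D5:**
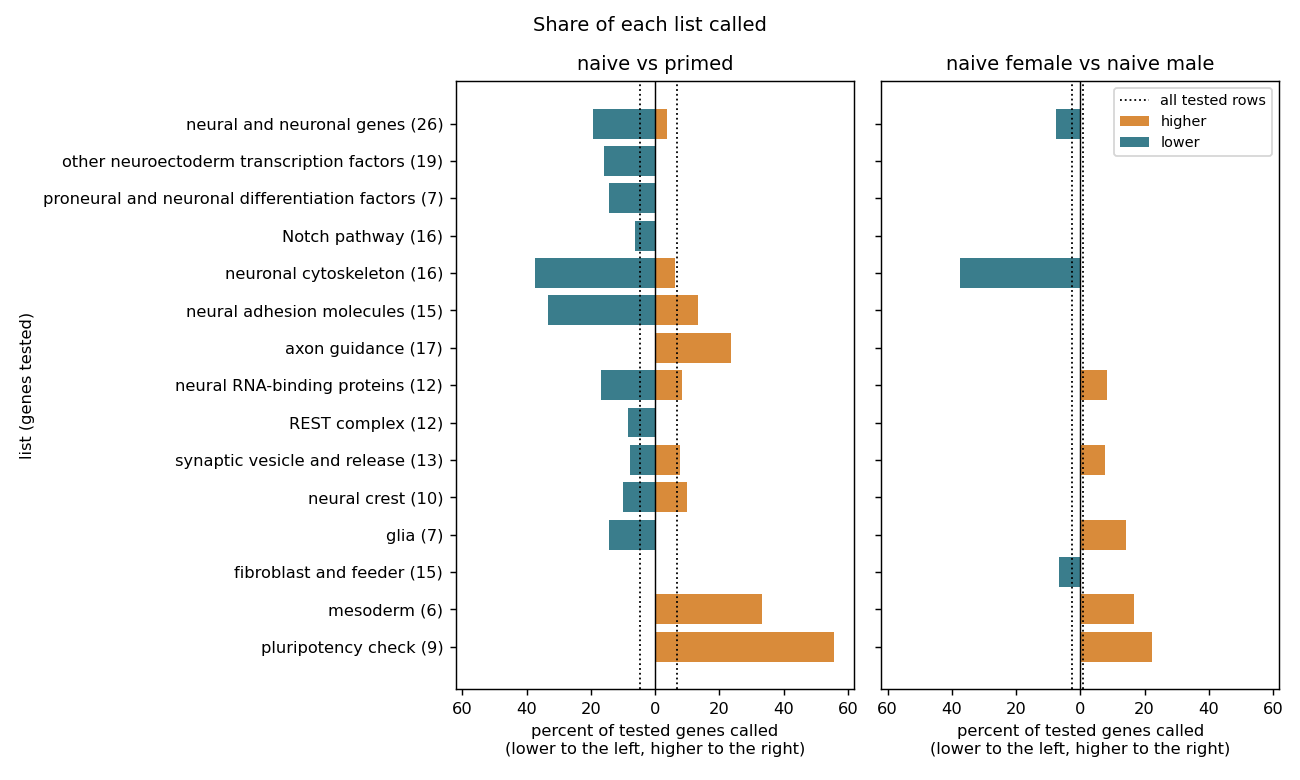
Percent of the tested genes of each list reported here called lower (left) and higher (right) in naive against primed and in female against male naive lines, with dotted lines at the shares of all 13685 tested rows. The bar to the left is longest for the neuronal cytoskeleton list in both panels, and the axon guidance list has a bar to the right in the left panel alone.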

How the data were processed

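The authors deposited 1 gene table per library with FPKM and its lower and upper bounds, in the layout of Cufflinks tracking files, per the file headers. TopHat 1.3.0 is the only tool that the submitters' processing notes name. For the genome build, annotation and quantifier version: not given in the sources used here. Coordinates are printed as the files have them. Bounds lie 2 SD either side of FPKM, and the effective number of fragments is (2 FPKM / (upper bound - FPKM)) squared. This number follows the width of the bounds and can depart from a plain count. MAP1B had 27.5 in naive male 1 at 37.6 FPKM and 870.2 in naive male 2 at 32.7 FPKM. Differences between lines are not covered by it.

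A group mean per gene was fitted over all 6 libraries with limma 3.58.1 (R 4.3.3) on log2(FPKM + 1) of 13685 rows, with trended moderation. Tests are two-sided, with Benjamini-Hochberg adjustment over all tested rows. The scale understates changes of low genes. The fit was tested on simulated data. The 36 genes and all lists were chosen with earlier results of these data known. Levels and an adjusted p for at least 1 comparison are given for genes called in any comparison or with a group mean of 5 FPKM or more. Differences and standard errors are not printed for each of these genes in each comparison. Up to 4 called genes are named per related list, by smallest p. LHX2, LHX5, POU3F2, COL1A1, LUM and the levels of CPLX2 were chosen after their values were seen. In the pluripotency list NANOG was represented by a scaffold fragment with its symbol, and the NANOG levels printed come from the row that the table of gene names assigns to it. Alternatives were another pseudocount, other filters and scalings, a replicate block, fewer groups, summed rows, no trend, sex ignored and each library left out. Keeping failed estimates was added after seeing the data. The tests of 1 further list are not reported here. Levels of 8 endoderm markers, the order of group means and the side on which genes passed the filter were added after seeing the data.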

Additional observations from a re-analysis of the deposited data

Results flagged for a closer look

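In the main fit the female and male naive lines differed in their distance from primed lines for MAP2 and TUBB3, by the test of the difference itself. Sex, line and depth cannot be told apart in it. Female minus male naive was -2.06 on the log2(FPKM + 1) scale for MAP2 (limma adjusted p = 0.0207), with both female lines below both male lines. TUBB3 was at -1.93 (limma adjusted p = 0.0498), likewise with both female lines below both male lines. The calls depended on the settings. TUBB3 was not called under upper-quartile, quantile or median-of-ratios scaling (limma adjusted p from 0.0606 to 0.0658). MAP2 was not called with no filter on FPKM (limma adjusted p = 0.0508). Both genes were near the primed levels in male naive lines, and the male libraries were the shallowest.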

How the results depend on the processing

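Over all rows, naive against primed called 941 with no filter, 812 with the replicate block, 625 without both male naive libraries and 250 with sex ignored, against 1548, and 177 to 1081 with a library left out. Male naive against primed called 400 with no filter, 373 with the block, 384 with rows of a symbol summed, 348 in a fit to the compared groups and 51 to 626 with a library left out, against 738. Female against male naive called 268 with no filter, 207 with the block, 171 with rows summed and 41 to 523 with a library left out, against 453. Of the neural genes, naive against primed called 3 with sex ignored and 1 to 6 with a library left out, against 6. Male naive against primed called 2 with no filter, 2 with the block and 0 to 3 with a library left out, against 4. Female against male naive called 2, but 0 with no filter and 1 with pseudocount 0.1, each of the 3 scalings, the block, no trend, rows summed and the compared groups alone, and 0 to 1 with a library left out. MDGA1 kept a negative difference in naive against primed under all 18 alternatives (-5.62 to -3.05). It had passed the filter through the primed libraries alone, so this is no support for its call. Of 1331 refitted differences of the 26 genes, 52 had the other sign, and 0 of these were called in either fit. The replicate numbers did not pair libraries: deviations of equal numbers correlated at -0.06, -0.05 and -0.263 across genes. With the block PAX6 was called (adjusted p = 0.0248). Male naive libraries had a median of 18.0 and 20.5 effective fragments per neural gene and the others 61.0 to 192.8, so genes near 1 FPKM could not be compared there. The cause of these changes was not tested.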
